A study of Homo sapiens with 6 samples.

Results

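Replication-dependent histone genes encode the proteins that package newly copied DNA. They were taken here as the protein-coding genes with a current symbol of H1-1 to H1-5, H2AC, H2BC, H3C or H4C, or with an older HIST1H, HIST2H or HIST3H name where no current symbol was matched. The choice gave 65 genes of 62111 in the deposited tables: 5 for the linker histone H1, 17 for H2A, 17 for H2B, 13 for H3 and 13 for H4. Of these, 50 lie in the large cluster on chromosome 6 (GRCh37, 25726291 to 27861669), and the remainder are on chromosomes 1, 12 and 21. RNA was sequenced from K562, an established erythroleukaemia line that carries BCR-ABL1. There were 3 libraries from cells labelled SF3B1-wt (WT) and 3 from cells labelled SF3B1-K700E (K700E), and the labels name no treatment or other allele. They do not say how the substitution was introduced, how many clones were used, or whether replicates were separate cultures. The p-values therefore measure only the spread between these libraries. SF3B1 is the subunit of the U2 snRNP that helps to recognise branch points, and K700E is a substitution found in blood cancers.

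Histone transcripts of this class have no introns in their main form and end in a conserved stem-loop in place of a poly(A) tail. The stem-loop is bound by SLBP, and cleavage just after it needs the U7 snRNP. The genes are read mainly in S phase, under the coactivator NPAT, and the transcripts are destroyed when DNA synthesis stops. Some of the same genes also give longer, polyadenylated transcripts that run past the stem-loop or are spliced. The labels call these mRNA libraries and do not state how the mRNA was selected. If it was captured by its poly(A) tail, the values below hold mainly the polyadenylated forms, and a level is then not the cell's content of histone mRNA. A difference in the share of cells in S phase and a difference in histone RNA per cell cannot be told apart in these bulk samples.

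The stem-loop is shown because it divides the families and because what lies after it in the annotation differs between genes. It was searched for in the transcripts of GENCODE release 29, joined by gene ID, on the transcript strand alone, as arms of the form GGNNCT and AGNNCC that are complementary to each other, with the loop TTTN between them (N is any base). It was found in 26 of the 63 genes that had a transcript there, many of the others being annotated without untranslated ends. Below, the arms are in capitals and the 4-base loop and 5 bases on either side are in lower case, written as DNA, 5′ to 3′.
H2BC4: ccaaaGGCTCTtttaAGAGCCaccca
H2AC6: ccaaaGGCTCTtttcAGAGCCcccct
H2BC21: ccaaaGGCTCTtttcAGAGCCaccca
H3C10: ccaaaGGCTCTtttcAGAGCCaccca
H4C8: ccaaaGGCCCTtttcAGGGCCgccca
H4C9: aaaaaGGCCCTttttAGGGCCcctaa
H4C5: tcaaaGGCCCTtttcAGGGCCgccca
All 7 H4 genes with a match had the arm GGCCCT, and all 19 genes of the other families had GGCTCT. The loop of H2BC4 ends in a and was shared with H2BC5 and H3C8 alone, whereas 16 genes of the H2A, H2B and H3 families carried the sequence of H2AC6. No H1 gene had a match, which says only that these letters are not in the annotated transcripts. Of the 20 genes whose deposited gene model is 834 bases or longer, 16 had an annotated transcript that continues more than 100 bases past the stem-loop. Of the 45 with a model of 797 bases or less, 3 did. A stem-loop was found in only 9 of these 45, against 17 of the 20, so most shorter models could not be counted. Bases past the stem-loop also lengthen a model, so this contrast follows in part from the division by length.

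Levels spanned the whole family unevenly. Of the 65 genes, 37 averaged 1 TPM or more over all 6 libraries and were tested (TPM is a level per length of gene, scaled to the same total in every library). A further 21 lay between 0 and that mean, none above 1.21 TPM in any library, and 7 were listed at 0 in every library. Only 8 genes had a mean above 100 TPM, namely H1-2, H2BC12, H2AC25, H4C9, H2AC6, H2BC11, H4C8 and H3C10. Together the 65 genes took 0.197, 0.352 and 0.285% of TPM in WT replicates 1, 2 and 3. In K700E replicates 1, 2 and 3 they took 0.430, 0.451 and 0.398%. These sums, which are not rescaled, did not overlap between genotypes. Recovered read ends per library ran from 104642332 to 136588117, which left counting error small for the abundant genes but not for genes near 1 TPM, such as H2BC3 with 6, 10 and 16 read ends in WT.

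**Figure D1:**
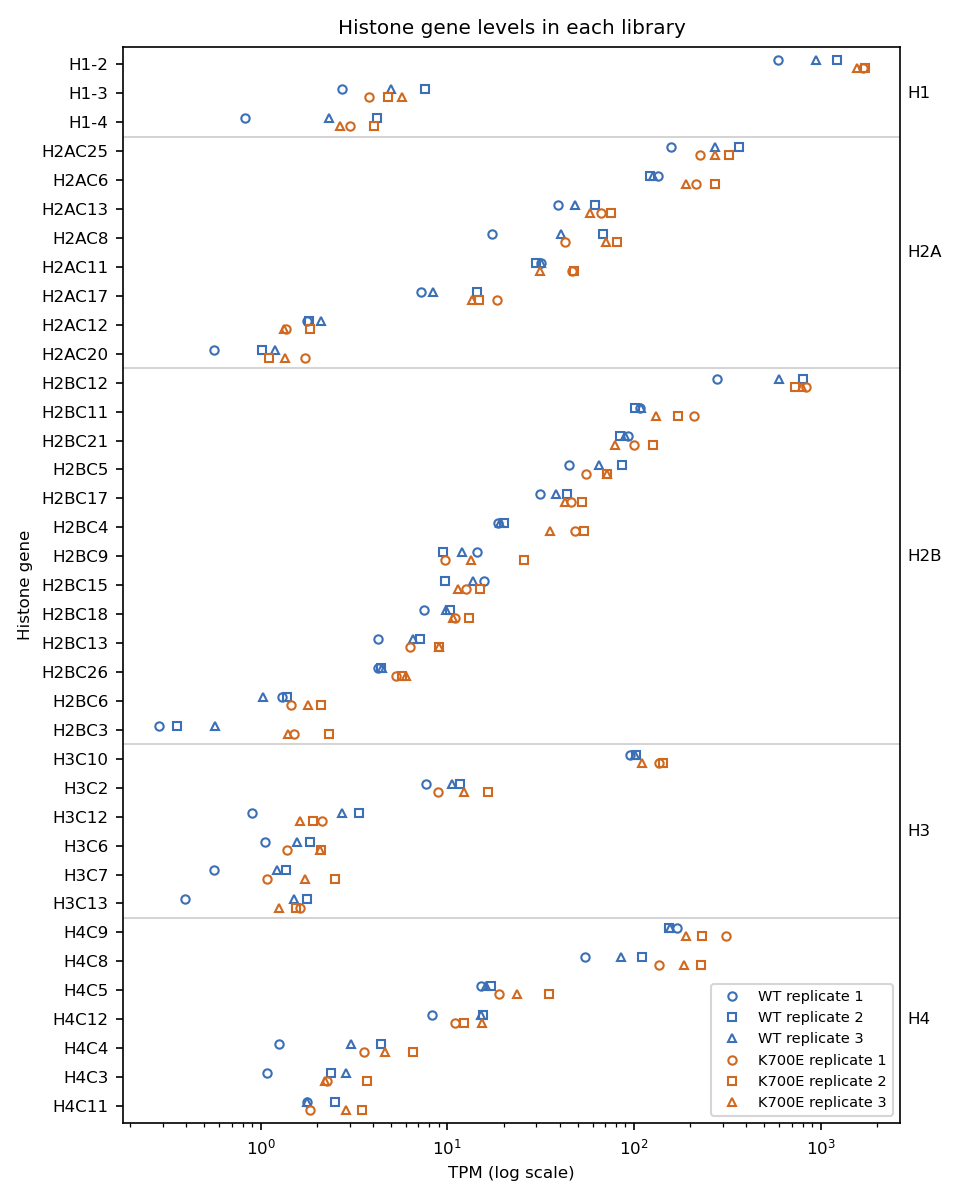
TPM in each library (log axis) for the 37 histone genes tested, ordered by family and mean level; blue is WT, orange is K700E, and circles, squares and triangles are replicates 1, 2 and 3. WT replicate 1 lies far to the left of the other WT libraries for genes such as H1-2, H2BC12 and H2AC8, while the 3 WT points of H2BC4, H2BC11 and H4C9 nearly coincide.

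Of the 7 genes at 0, 6 had a near-identical copy or an overlapping gene. HIST2H2AA3 and HIST2H2AA4 overlap each other in the deposited gene models over 100% and 97.3% of their bases, and H2AC15 lies wholly within exons of H2BC15 on the opposite strand. H3C14, H4C14 and H4C15 share 97.2 to 100% of their 50-base words with another gene. H4C13 is the exception, with no shared word and no overlap. A count of 0 allows up to 0.178 TPM for H4C13 in the library with the fewest reads, taking 3 read ends as the limit (counting error only). In all, 11 of 63 genes shared over 90% of their 50-base words with another gene, among them H4C12 (100%), so that values of these genes are uncertain. H2BC12 (74.1%) and H2AC13 (62.3%) shared much of theirs too. The strand setting of the counting is not given in the sources used here.

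The libraries differed in ways that genotype does not explain, and this touches every result below. WT replicate 3 lay between the other 2 WT libraries in 75.9% of all genes tested, against 25.7 to 46.3% for a K700E library within its group. The log2 ratio of WT replicate 3 to the mean of the other 2 had an SD of 0.17 over genes, against 0.34 to 0.53 for the other 5 libraries. Whether WT replicate 3 is a library independent of the other 2 is not known, and if it is not, the WT SDs, n = 3 and the limma p-values below overstate the precision. WT replicate 1 had less of GC-rich RNA than WT replicate 2. The median gene with a transcript GC content of 60% or more was 0.83 lower in WT replicate 1 on the log2(TPM + 1) scale, and the median gene under 40% was 0.58 higher. Markers of K562 were present, ALAS2 at 717 to 1363 TPM and TFRC at 466 to 1092 TPM, both with every K700E library above every WT library. All 11 K562 markers were tested, and 3 of them had every K700E library above every WT library, against 19.0% of all genes tested. A difference above 0 was seen in 9, and the median of the 11 was 0.12, beside 0.13 for all genes. The summed level of the 11 overlapped, at 4098 to 6511 TPM in WT, against 5130 to 9569 TPM in K700E. The summed level of 6 lymphoid markers was 4.57 to 4.87 TPM in WT, against 5.41 to 10.2 TPM in K700E. For 4 monocyte markers it was 113 to 126 TPM, against 66.1 to 176 TPM, and for 6 stromal and epithelial markers 45.8 to 80.5 TPM, against 54.3 to 65.8 TPM. Their part in the results was not tested. Most of the last sum was EPCAM (43.4 to 78.9 TPM), and most of the monocyte sum was LYZ (64.6 to 174 TPM). Several low markers had every K700E library above every WT library. They were CD3G (0.443 to 0.531 TPM in WT, against 1.30 to 5.08 TPM), CD3E, CD2, CSF1R, COL3A1 and COL1A1 (1.31 to 2.44 TPM in WT, against 3.29 to 5.07 TPM). The log2 differences of CD3G and COL1A1 were 1.42 and 0.77, and neither passed in limma (adjusted p 0.1001 and 0.145). DCN had every K700E library below every WT library, all under 1 TPM, and MS4A1 and KRT5 were at or near 0.

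The comparison asked which histone genes differed between K700E and WT cells. Of the 37 genes tested, 1 was higher at a limma adjusted p under 0.05 and none was lower, against 1.15% higher and 0.232% lower among all 15493 genes tested. At an unadjusted limma p under 0.05 there were 10 higher and 0 lower, against 2018 higher and 545 lower (3.52%) among all 15493 genes tested, 16.5% in both directions together. The median log2 difference of the 37 was 0.33, beside 0.13 for all genes, and 30 lay above that median gene. A difference above 0 was seen in 34 of 37, against 69.3% of all genes, and in 29 of 37 after median-ratio or TMM scaling, which moved the median of all genes to -0.04. Every K700E library lay above every WT library for 12 genes, against 19.0% of all genes tested, and below it for none, against 4.99%. With WT replicate 1 left out, every K700E library lay above both other WT libraries for 12 genes, against 33.9% of all genes tested, so that this share was near the background. Of the 37, H2BC3 and H2AC20 reached 1 TPM only through their K700E values, so these counts are a description of the genes that passed and not support for a difference.

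**Figure D2:**
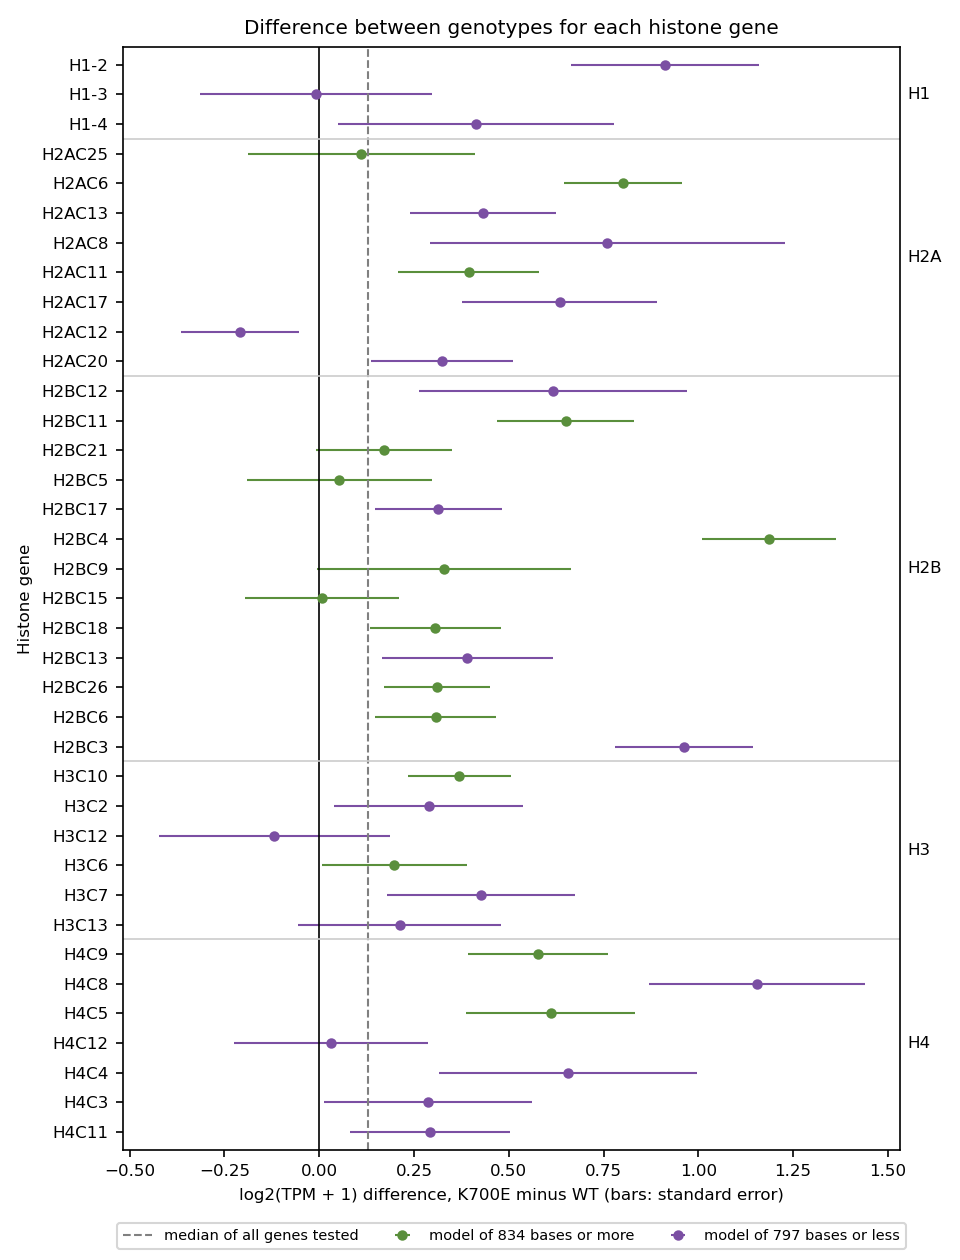
Difference of log2(TPM + 1), K700E minus WT, with its limma standard error for the 37 histone genes tested; green marks gene models of 834 bases or more, purple those of 797 bases or less, and the dashed line is the median of all genes (0.13). H2BC4 (1.19) passed the test, and 34 points lie to the right of 0, or 29 after median-ratio or TMM scaling.

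Beside 1.15% called higher among all genes tested, 1 call among 37 genes says little about the class. The gene called was H2BC4. It encodes an H2B protein and lies on chromosome 6 (ENSG00000180596, GRCh37 26115101 to 26124154, minus strand), with 2 exon blocks totalling 834 bases in the deposited model. Its level was 18.8, 20.1 and 19.1 TPM in WT, against 48.3, 53.9 and 35.5 TPM in K700E. The lowest K700E library stood above all WT libraries, which lay close together. The means were 19.3 ± 0.688 and 45.9 ± 9.47 TPM (SD, n = 3 each), a 2.38-fold ratio, with a log2 difference of 1.19 (SE 0.18) and a limma adjusted p of 0.0279. Between 680 and 2294 read ends per library lay behind these values. The adjusted p was 0.153 without WT replicate 3, with a log2 difference of 1.18, and it was above 0.05 also without WT replicate 2 (0.0549), K700E replicate 1 (0.103) or K700E replicate 2 (0.0882). Scaling by median ratio (0.0530) or TMM (0.0540) took it over the threshold as well, with log2 differences of 1.008 and 1.001. So did testing without a filter (0.0782, difference 1.19), where limma called none of 38861 genes.

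H2AC6, the H2A gene that faces H2BC4, had the next clearest separation at a substantial level. The 2 genes diverge from a gap of 218 bases on GRCh37. H2AC6 was at 135, 121 and 127 TPM in WT, against 215, 271 and 191 TPM in K700E, so the groups did not overlap. The means were 128 ± 6.87 and 226 ± 41.3 TPM (SD, n = 3 each), 0.80 apart on the log2 scale (SE 0.15), and the limma adjusted p of 0.0621 missed the threshold. The promoter bases of this pair are shown because both genes stand apart between genotypes. They are the 150 bases before each RefSeq start, 5′ to 3′ on the gene's own strand, with 3 known promoter motifs in capitals where they were found on either strand. These are TATAAA, the core promoter box of that name, then the box CCAAT, and the octamer ATTTGCAT, which is known from H2B promoters. The window of H2BC4 is chr6:26123927-26124076, minus strand, and that of H2AC6 is chr6:26124022-26124171, plus strand, on GRCh38.p14, and 55 bases are common to both.
H2BC4: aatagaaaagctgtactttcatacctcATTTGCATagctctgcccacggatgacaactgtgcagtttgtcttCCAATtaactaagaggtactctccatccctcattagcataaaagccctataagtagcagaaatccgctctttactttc
H2AC6: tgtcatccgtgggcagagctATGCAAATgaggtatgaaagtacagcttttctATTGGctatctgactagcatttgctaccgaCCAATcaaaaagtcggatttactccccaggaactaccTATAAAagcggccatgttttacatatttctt
Both windows hold the same octamer, read on opposite strands.

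Windows of 300 bases (250 before to 50 after the start) were available for 57 of the 65 genes. The octamer was found on either strand in 12 of 16 H2B and 11 of 14 H2A windows, in 1 of 11 H3 windows and in none of 5 H1 or 11 H4 windows, against 1.77% of all RefSeq promoters. CCAAT was found in every window of H1, H2A, H2B and H3 genes and in 2 of 11 H4 windows, against 34.6%. TATAAA was found in 38 of 57, against 11.5%. H2A and H2B neighbours that diverge share part of their windows, so these counts are not independent.

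Of 9 divergent pairs of an H2A and an H2B gene, with gaps of 214 to 267 bases, 7 had both genes tested. The genes of a pair differed widely in level per length of gene model. H2BC12 averaged 395 times the level of H2AC12, H2BC21 82.5 times that of H2AC20, and H2AC25 53.5 times that of H2BC26, whereas H2AC6 was 5.42 times H2BC4 and H2BC11 was 3.79 times H2AC11. The log2 differences of H2BC11 and H2AC11 were 0.65 and 0.39, those of H2BC13 and H2AC13 were 0.39 and 0.43, and those of H2AC17 and H2BC17 were 0.63 and 0.31. H2BC12 and H2AC12 had opposite signs, 0.62 and -0.21. Those of H2BC21 and H2AC20 were 0.17 and 0.32, and those of H2AC25 and H2BC26 were 0.11 and 0.31. Apart from H2BC4, none of these genes passed the test.

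Among the other H2B genes, H2BC12 was the most abundant, at 277, 808 and 599 TPM in WT, against 839, 726 and 796 TPM in K700E. Of the 3 K700E values, 2 fell inside the WT range (log2 difference 0.62, SE 0.35, limma adjusted p 0.440), and without WT replicate 1 the difference was 0.17. H2BC11 was at 108, 101 and 109 TPM in WT, against 209, 172 and 130 TPM in K700E, with no overlap (log2 difference 0.65, SE 0.18, limma adjusted p 0.141). H2BC21, the main gene of the cluster on the long arm of chromosome 1 near the centromere, was at 92.9, 84.5 and 89.4 TPM in WT, against 100.1, 126 and 79.5 TPM in K700E. The K700E values of H2BC21 straddled those of WT (0.17, SE 0.18, adjusted p 0.687, and -0.02 with TMM scaling).

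H2BC15 had the lowest difference of the H2B genes tested, 0.01 (SE 0.20, limma adjusted p 0.989), with 15.7, 9.74 and 13.7 TPM in WT, against 12.6, 14.9 and 11.4 TPM in K700E. H2BC3, named here after its values were seen, was at 0.284, 0.355 and 0.567 TPM in WT, against 1.52, 2.33 and 1.40 TPM in K700E. It reached a mean of 1 TPM only through its K700E values, on at most 58 read ends in a library, so its values are a description and its p is not given. H2BC5, the gene that has the same loop as H2BC4 and also 2 exon blocks, was named in the same way and did not share its pattern. Its level was 44.8, 86.3 and 65.1 TPM in WT, against 55.2, 71.3 and 71.7 TPM in K700E, and the groups overlapped (0.05, SE 0.24, limma adjusted p 0.937).

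The H1 family was almost entirely H1-2, which made up 99.3% of its summed TPM. H1-2, a linker histone gene without introns on chromosome 6 (ENSG00000187837, GRCh37 26055968 to 26056698), was at 590, 1226 and 945 TPM in WT, against 1693, 1718 and 1570 TPM in K700E. All K700E libraries lay above all WT libraries, and the WT libraries were spread widely, replicate 1 lowest. The means were 920 ± 319 and 1661 ± 79.2 TPM (SD, n = 3 each), and the difference was 0.91 on the log2 scale (SE 0.25) at a limma adjusted p of 0.134. Without WT replicate 1 the log2 difference was 0.62. H1-3 was at 2.73, 7.56 and 4.98 TPM in WT, against 3.81, 4.82 and 5.72 TPM in K700E (-0.01, SE 0.31, limma adjusted p 0.993). H1-4 was at 0.819, 4.22 and 2.33 TPM in WT, against 3.02, 4.06 and 2.68 TPM in K700E (0.41, SE 0.36, adjusted p 0.623). Both overlapped between genotypes. H1-1 and H1-5 did not reach 1 TPM.

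In the H2A family the most abundant gene was H2AC25, in the small cluster towards the end of the long arm of chromosome 1. It was at 158, 366 and 271 TPM in WT, against 225, 324 and 270 TPM in K700E, the K700E values falling inside the WT range (0.11, SE 0.30, limma adjusted p 0.889). Its sign turned with TMM scaling (-0.08), with GC correction (-0.03) and without WT replicate 1 (-0.22). H2AC13 was at 39.2, 61.7 and 48.4 TPM in WT, against 66.9, 75.1 and 58.2 TPM in K700E, which overlapped narrowly (0.43, SE 0.19, adjusted p 0.320). H2AC12 had the lowest difference, the only one below 0 among the 8 H2A genes tested, at 1.76, 1.82 and 2.12 TPM in WT, against 1.37, 1.84 and 1.33 TPM in K700E (-0.21, SE 0.15, adjusted p 0.548).

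In the H3 family H3C10, which encodes the replication-dependent H3.1 protein, made up 86.4% of the summed TPM. It was at 95.8, 102 and 102 TPM in WT, against 136, 142 and 111 TPM in K700E. The groups did not overlap, with a log2 difference of 0.37 (SE 0.14, limma adjusted p 0.239). H3C2 was at 7.66, 11.8 and 10.6 TPM in WT, against 8.94, 16.6 and 12.3 TPM in K700E (0.29, SE 0.25). H3C7, with the largest difference of the family, was at 0.559, 1.37 and 1.22 TPM in WT, against 1.09, 2.50 and 1.73 TPM in K700E (0.43, SE 0.25). The values of both overlapped. H3C12 was at 0.899, 3.35 and 2.73 TPM in WT, against 2.14, 1.91 and 1.63 TPM in K700E, all inside the WT range (-0.12, SE 0.31). None of the 6 H3 genes tested passed.

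The H4 genes, nearly all of which encode 1 identical protein, had the largest median difference of the 5 families, with all libraries and without WT replicate 1. Their median log2 difference was 0.58 over 7 genes tested, against 0.41 for 3 H1, 0.41 for 8 H2A, 0.31 for 13 H2B and 0.25 for 6 H3 genes, and no test compared the families. Without WT replicate 1 these medians were 0.31 for H4, 0.01 for H1, 0.26 for H2A, 0.20 for H2B and 0.10 for H3, beside 0.14 for all genes. H4C8 was at 54.9, 111 and 84.6 TPM in WT, against 137, 227 and 186 TPM in K700E. Its groups did not overlap, at means of 83.4 ± 27.9 and 183 ± 45.5 TPM (SD, n = 3 each), and the difference was 1.15 on the log2 scale (SE 0.28) at a limma adjusted p of 0.114. H4C9 was at 169, 154 and 156 TPM in WT, against 310, 230 and 191 TPM in K700E, also without overlap (0.58, SE 0.18, adjusted p 0.188). H4C5 was at 15.1, 17.0 and 16.1 TPM in WT, against 19.0, 35.0 and 23.6 TPM in K700E, again apart (0.61, SE 0.22, adjusted p 0.237). H4C12, which shares all its 50-base words with another gene, was at 8.27, 15.5 and 15.1 TPM in WT, against 10.99, 12.3 and 15.4 TPM in K700E, which overlapped (0.03, SE 0.26).

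Summed over each family, K700E libraries lay above all WT libraries for H1, H2B, H3 and H4, but not for H2A. The H1 sum was 594, 1239 and 953 TPM in WT, against 1701, 1728 and 1579 TPM in K700E. The H2A sum was 392, 666 and 532 TPM in WT, against 622, 819 and 639 TPM in K700E, and the H2B sum 621, 1187 and 970.0 TPM against 1345, 1275 and 1210 TPM. The H3 sum was 107, 122 and 119 TPM in WT, against 152, 167 and 130.4 TPM in K700E, and the H4 sum 252, 307 and 279.9 TPM against 485, 519 and 426 TPM. The ratio of the K700E mean to the WT mean was 1.80 for H1, 1.31 for H2A, 1.38 for H2B, 1.29 for H3 and 1.70 for H4. Without WT replicate 1, the lowest WT library in all 5 families, the ratios were 1.52, 1.16, 1.18, 1.24 and 1.62. Over all 65 genes the ratio was 1.53, and 1.34 without WT replicate 1. With H1-2 and H2BC12 left out of the sum it was 1.40. By location it was 1.61 for the chromosome 6 cluster (1.40 without WT replicate 1), 1.16 for the 11 genes of cluster 1q21 and 1.04 for the 2 genes of cluster 1q42 (0.86 without WT replicate 1). These sums are weighted towards a few genes, are not rescaled and carry no test. With median-ratio scaling the ratio over all 65 genes was 1.34. The gap between genotypes was narrow for H2B (1187 against 1210 TPM) and H3 (122 against 130.4 TPM).

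**Figure D3:**
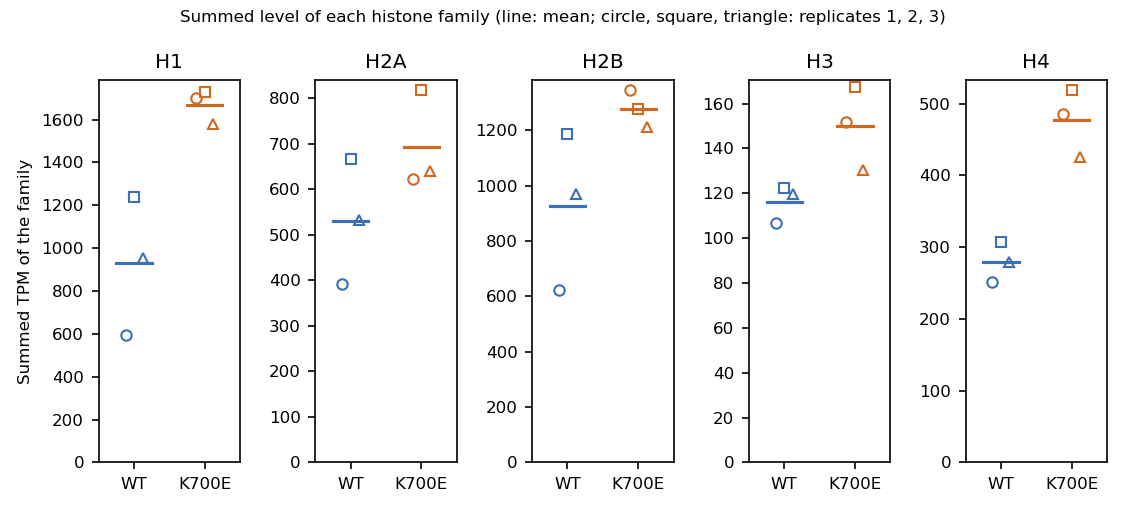
Summed TPM of each histone family in every library, each axis starting at 0 with its own scale; the line is the mean of 3 libraries. Without rescaling, K700E points lie above all WT points for H1, H2B, H3 and H4. WT replicate 1 (blue circle) is the lowest point in all 5 families.

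Gene models divided the WT spread. For the 16 tested genes with a model of 834 bases or more, the median coefficient of variation was 5.66% in WT and 19.5% in K700E. For the 21 tested genes with a model of 797 bases or less it was 36.7% in WT and 20.0% in K700E. WT replicate 1 was the lowest WT library for 20 of these 21 genes and for 8 of the 16, against 40.1% of all genes tested. The shorter models were also richer in GC, with a median of 59.9% against 47.2%. The coefficient of variation is given next without WT replicate 1. With WT replicates 2 and 3 alone it was 17.1% for shorter and 4.53% for longer models. Across all genes WT replicate 1 fell further below WT replicate 2 as GC content rose. The median histone gap at 45 to 50% GC was 0.09 (11 genes), against -0.16 for all genes. At 55 to 60% it was 1.05 (7 genes) against 0.40, and at 60% or more 0.87 (10 genes) against 0.83. Gene model, GC content and this library move together here, and their part in the differences was not tested. H1-10 and H2AX, histone genes outside this class with a transcript GC content of 68.6 and 66.4%, had the same order of WT libraries, at 8.75, 37.0 and 24.5 TPM and at 43.5, 101 and 76.6 TPM. MACROH2A1 and H3-3B, less rich in GC at 44.0 and 50.4%, had that order too. They were at 105, 137 and 120 TPM and at 336, 516 and 421 TPM. H2AZ1, H2AZ2, H3-3A and CENPA had other orders.

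**Figure D4:**
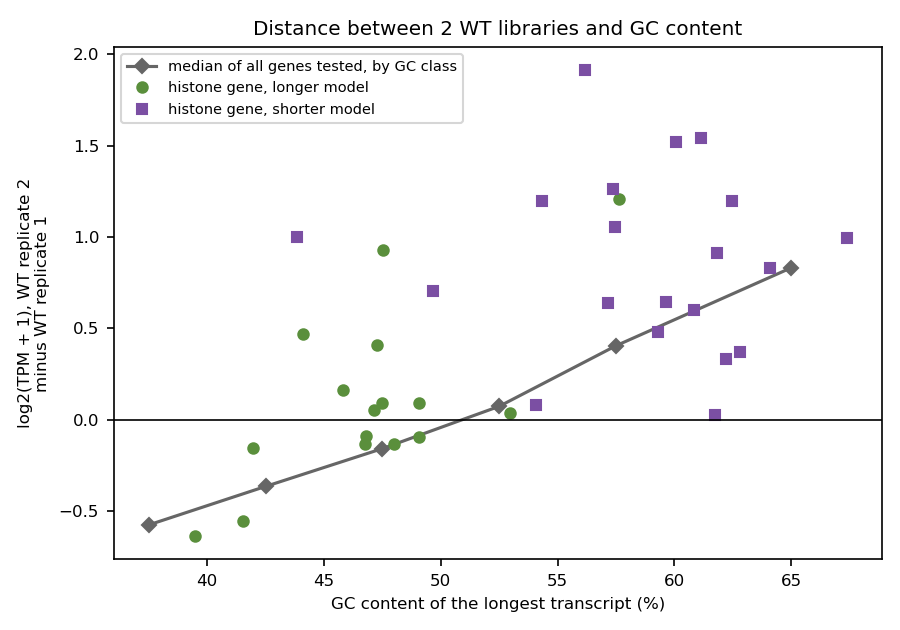
Difference of log2(TPM + 1) between WT replicate 2 and WT replicate 1 (vertical axis, above 0 where replicate 1 is lower) against the GC content of the longest transcript, for the 36 tested histone genes with a GC value; the grey line joins the medians of all genes tested in 6 GC classes. The line climbs from -0.58 under 40% to 0.83 at 60% or more, and most purple points (models of 797 bases or less) stand at the GC-rich side and above 0.

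Counts of separated genes are given by gene model. Of all genes tested, 19.0% had every K700E library above every WT library, and 69.3% had a difference above 0. Among the 16 with longer models, 9 had every K700E library above every WT library and 16 had a difference above 0, of which H2AC25, H2BC5, H2BC15 and H2BC21 turned below 0 with median-ratio and with TMM scaling. Their median was 0.32. Among the 21 with shorter models, 3 were apart in that way and 18 had a difference above 0, of which H4C12 turned below 0 with both scalings, and their median was 0.39. Without WT replicate 1 the medians were 0.33 and 0.19, beside 0.14 for all genes. Every K700E library then lay above both other WT libraries for 9 longer and 3 shorter models, against 33.9% of all genes tested. The models were divided after the values had been seen, so these are descriptions without a test.

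Genes that make and process histone transcripts showed no call, against 1.15% higher and 0.232% lower among all genes tested. Of 36 genes for histone transcription and 3′ end formation, 0 passed in limma and 4 had an unadjusted p under 0.05, a share below the 16.5% of all genes tested, and their median log2 difference was 0.17 (21 above the median gene). NPAT, the S-phase coactivator of these genes, was at 19.0, 12.9 and 15.0 TPM in WT, against 21.8, 19.7 and 19.0 TPM in K700E (0.36, SE 0.17, limma adjusted p 0.355). SLBP, the stem-loop binding protein, was at 149.5, 109.9 and 122 TPM in WT, against 146, 154 and 135 TPM in K700E (0.20, SE 0.15, adjusted p 0.548). CSTF2, a subunit of the cleavage complex, had the smallest p of this list, at 33.5, 39.3 and 35.5 TPM in WT, against 55.5, 51.0 and 47.2 TPM in K700E (0.49, SE 0.13, adjusted p 0.134).

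Turnover, poly(A) and chaperone genes likewise had no member past the threshold, against 1.15% higher and 0.232% lower among all genes tested. At those shares, no call in lists of this size says little. The unadjusted counts below stand beside 16.5% of all genes tested. Of 22 genes of histone mRNA turnover, 0 passed in limma (0 unadjusted), with a median of 0.10, and TUT7, a uridylyltransferase, had the smallest p. It was at 17.2, 12.01 and 14.3 TPM in WT, against 19.5, 18.9 and 15.3 TPM in K700E (0.29, SE 0.18, limma adjusted p 0.470). Of 16 genes of poly(A) addition and the nuclear exosome, 0 passed (0 unadjusted), with a median of 0.14, and EXOSC3, a core subunit of the exosome, had the smallest p. It was at 34.5, 25.6 and 28.3 TPM in WT, against 38.9, 37.9 and 33.8 TPM in K700E (0.32, SE 0.15, adjusted p 0.358), overlapping narrowly. Of 25 chaperone and import genes tested, 0 passed (2 unadjusted), with a median of 0.11. NASP, a chaperone that holds soluble H3 and H4, stood lower in all K700E libraries, at 319, 284 and 285 TPM in WT, against 240.1, 234 and 224 TPM in K700E (-0.35, SE 0.11, adjusted p 0.194).

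Histone genes outside the replication-dependent class had no call either, against 1.15% higher and 0.232% lower among all genes tested (16.5% unadjusted). Of 8 tested, 0 passed in limma (0 unadjusted), with a median of 0.18, and H2AZ1 had the smallest p at 970, 984 and 986 TPM in WT, against 1292, 1097 and 1061 TPM in K700E (0.23, SE 0.12, limma adjusted p 0.389). H3-3B, a gene for the replacement histone H3.3, was at 336, 516 and 421 TPM in WT, against 397, 402 and 350.2 TPM in K700E (-0.13, SE 0.17, adjusted p 0.761).

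S phase genes had a higher summed level in K700E libraries, as the histone genes and the genes for histone transcription and 3′ end formation did. Of 46 S phase and replication genes, 0 passed in limma, against 1.15% higher and 0.232% lower among all genes tested. At an unadjusted limma p under 0.05 there were 13 of the 46, against 16.5% of all genes tested. Their median log2 difference was 0.22, 30 of 46 lay above the median gene, and 17 had every K700E library above every WT library, against 19.0% of all genes tested. Their summed level was 3680 to 3996 TPM in WT, against 4442 to 4560 TPM in K700E, without overlap. For the 36 genes of histone transcription and 3′ end formation it was 2182.5 to 2351 TPM, against 2436 to 2671 TPM, also without overlap. CCNE1, CCNE2 and SLBP belong to both lists, so the lists are not independent. CCNE1 and CCNE2 count in the unadjusted totals of both. CHAF1A, CHAF1B and MCM2 are also in the chaperone list. The sums of the turnover, poly(A), chaperone and variant lists overlapped. These sums are not rescaled, and the median of all genes was 0.13, or -0.04 after median-ratio or TMM scaling. RRM2, a subunit of ribonucleotide reductase, had the smallest p, at 80.4, 66.5 and 70.3 TPM in WT, against 132, 107 and 117 TPM in K700E (0.71, SE 0.14, limma adjusted p 0.0640). The part of S phase in the histone differences was not tested.

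Of 21 RNAs listed as lacking a poly(A) tail, 14 were found in the tables, and their levels ranged from 0 to above those of most histone genes. RN7SK, SNORD118 and RNY3 were listed at 0 in all 6, RMRP reached at most 1.84 TPM and TERC 0.0828 TPM. VTRNA1-3, a vault RNA, was at 3.49 to 11.6 TPM. Of the 14 found, 5 were tested and 0 passed in limma, against 1.15% higher and 0.232% lower among all genes tested. At an unadjusted limma p under 0.05 there was 1 of the 5, against 16.5% of all genes tested. SNORD3A, the U3 small nucleolar RNA, had the smallest p of these, at 2.64, 4.80 and 3.56 TPM in WT, against 2.69, 2.19 and 1.36 TPM in K700E (-0.60, SE 0.24, limma adjusted p 0.276). The most abundant was MALAT1, whose end is protected by a triple helix and which has a run of A, at 189, 114 and 146 TPM in WT, against 224, 231 and 158 TPM in K700E (0.46, SE 0.23, limma adjusted p 0.366). How much of each histone value comes from transcripts that end at the stem-loop was not measured, since values per gene do not separate transcript ends.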

How the data were processed

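K562 RNA was isolated on magnetic beads before mRNA library preparation, per the labels' protocols. The authors deposited TPM per gene in a table per genotype, on GRCh37 (hg19) per the submitters' processing notes, which also name cutadapt 2.10, TopHat2 2.1, featureCounts 2.0.1 and DESeq2. Per the file headers, the WT column names end as the aligner STAR writes them. For the K700E table no aligner or strand setting is known here (not given in the sources used here), so that a difference in processing between the tables cannot be told apart from genotype. TPM multiplied by gene length (a column of the deposited WT table, in bases) gave whole multiples of 1 step per library for 100% of values, within 0.01, and these multiples are the recovered read ends. Genes with 2 outnumbered genes with 1 in every library, and for that reason the multiples are called read ends and not fragments.

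The 15493 genes averaging 1 TPM or more were compared on the log2(TPM + 1) scale in limma 3.58.1 (R 4.3.3; empirical Bayes with a trend, genotype as the term, two-sided, Benjamini-Hochberg over all 15493, threshold 0.05). This scale understates the change of low genes. An exact permutation p of 3 against 3 libraries cannot go below 0.1. Members, lists and tests were chosen with earlier results of these data known. Values in every library were given for called genes, the 3 most abundant of each family, the largest and smallest difference of each family, NPAT, SLBP and the gene with the smallest p of each list of the pathway. H2BC3, H2BC5, H1-10, H2AX, H3-3B, MALAT1, ALAS2, TFRC, EPCAM, LYZ and the low markers of other cell types were named after their values were seen. So were MACROH2A1, H2AZ2, H3-3A and CENPA. Symbols were matched for 58604 of 62111 IDs. Gene types and transcript sequences came from GENCODE release 29 (GRCh38) by gene ID, and promoters from RefSeq. In 5 simulated runs of this comparison, with a median of 15239 genes tested, limma recovered 40.8% of 2-fold changes and 78.4% of 4-fold changes, with 24 false among 620 calls. The runs drew every gene and library independently, without a shared effect of GC content or library. These rates therefore may not hold for the real libraries. Deviations of same-numbered libraries had correlations of 0.28, -0.19 and 0.30, and those of other pairs ran from -0.48 to 0.43. The same-numbered K700E library was the closest match for WT replicates 1 and 3 but not for WT replicate 2. Replicate numbers were therefore not taken as pairs, and a block for them was run as an alternative. Alternatives were other pseudocounts (0.1 and 5), filters (none and 5 TPM), scalings (median ratio and TMM), a block for replicate number, omission of each library, no trend in limma, a table reduced to nuclear protein-coding genes, limma-voom on read ends and, added after the data were seen, a loess correction on GC content.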

Additional observations from a re-analysis of the deposited data

How the results depend on the processing

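The count of histone genes called higher was 1 with all libraries and 0 with no filter on low values (where none of 38861 genes was called), with median-ratio scaling and with TMM scaling. Leaving out 1 library gave 0 to 1 genes, and 0 genes were called lower in any setting run. Without WT replicate 3 limma called 0 of all 15493 genes. The replicate number as a block kept the count at 1, with H4C8 (limma adjusted p 0.0463) in place of H2BC4 (0.0622), while all genes called fell from 178 higher and 36 lower to 59 and 8. The GC correction gave 267 higher and 218 lower among all genes, with H2BC4 still called. The ratio of summed TPM, K700E over WT, was 1.53, and 1.34 with median-ratio scaling. It ran from 1.34 to 1.77 when 1 library was left out. Of 20 genes named by the rule, those with a difference near 0 changed sign. H1-3 (-0.01) was 0.0076 with a pseudocount of 0.1 and ran from -0.32 to 0.28 over single omissions. H2AC25 (0.11) was -0.074 with median-ratio scaling, -0.081 with TMM, -0.030 with GC correction and -0.22 to 0.38 over omissions. H2BC21 was -0.012 with median-ratio scaling and -0.020 with TMM. H2BC15 was -0.16 with median-ratio scaling, -0.17 with TMM, -0.029 with limma-voom, -0.13 with GC correction and -0.17 to 0.145 over omissions. H4C12 was -0.14 with median-ratio scaling, -0.15 with TMM, -0.020 with limma-voom, -0.052 with GC correction and -0.24 to 0.17 over omissions. H3C12 (-0.12) ran from -0.48 to 0.12 over omissions. The cause of these changes was not tested.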
